A study of Homo sapiens with 6 samples.

Results

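The genes of intracellular calcium stores, of calcium entry across the plasma membrane and of the pumps that clear calcium from the cytosol were described in MH7A cells. They were chosen by name, as the rows of the deposited count table with the symbols ITPR1, ITPR2, ITPR3, ORAI1, ORAI2, ORAI3, STIM1, STIM2, ATP2A2 and ATP2B1. All 10 were in the table of 19475 symbols, and all 10 passed the filter on low counts that left 13794 genes for testing. MH7A is an established line of synovial fibroblasts from a rheumatoid joint, kept growing by a viral large T antigen, and stands in for the fibroblasts of the rheumatoid synovium. TNFα, at 10 ng/ml, was given in all 6 libraries. In the TNF plus LED group (replicates 4, 6 and 10) the cells were also lit with a 630 nm red LED for 15 min, 3 times, and in the TNF group (replicates 2, 8 and 14) they were not. The comparison asks what differed with red light in cells under TNFα, and no library without TNFα, with light alone or with sham exposure was part of it, so light and any warming by the lamp cannot be told apart.

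Calcium signalling in fibroblasts starts when surface receptors activate phospholipase C, which makes inositol trisphosphate (IP3). IP3 opens the IP3 receptors ITPR1, ITPR2 and ITPR3 in the endoplasmic reticulum, and calcium flows from the store into the cytosol. The store membrane also holds STIM1 and STIM2, which sense the fall of calcium in the lumen and open the ORAI channels of the plasma membrane, a route called store-operated calcium entry. The pump SERCA2, encoded by ATP2A2, refills the store, and the plasma membrane pump PMCA1, encoded by ATP2B1, expels calcium from the cell.

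Deposited totals were 94615430 to 108074289 estimated counts in the TNF plus LED libraries and 86000253 to 107139947 in the TNF libraries. Low values bunched at 4, so a sequenced fragment appeared to be worth about 4 units. Levels are given as CPM, the count scaled to a common library total (TMM normalization). The 10 synovial fibroblast markers summed to 23940 to 25270 CPM with TNF plus LED and 28110 to 30130 CPM with TNF. Most of this was COL1A1, VIM and COL1A2. None of the 9 that could be tested passed an adjusted p of 0.05 in edgeR (median log2 fold change -0.09). PRG4, the lubricin of the joint lining, did not exceed 0.0787 CPM. The 6 macrophage and leukocyte markers summed to 114.8 to 155.6 CPM with TNF plus LED and 93.4 to 138.9 CPM with TNF, nearly all of it CD68 (113 to 153 CPM with TNF plus LED and 92.2 to 137 CPM with TNF), and CD3E was listed at 0. The 3 epithelial markers summed to 6.91 to 9.43 CPM with TNF plus LED and 5.88 to 6.46 CPM with TNF, mostly KRT8. The 3 endothelial markers summed to 1.44 to 1.93 CPM with TNF plus LED and 0.369 to 1.22 CPM with TNF, mostly VWF, and CDH5 was listed at 0. The part of these markers in the calcium gene results was not tested. A library from each group stood apart. TNF replicate 8 was the highest or lowest of its group for 86.9% of the genes tested and for 10 of the 10 calcium genes. TNF plus LED replicate 6 was at an extreme of its group for 83.1% of the genes tested and for 9 of the 10 calcium genes, in 8 of them the lowest. In a group of 3 only the middle library is not at an extreme, so high shares are usual. The other libraries had shares of 47.1% to 68.7%, and TNF plus LED replicate 10, at 68.7%, was at an extreme for 8 of the 10 calcium genes. Log2 fold changes of the genes described are also given without both of these libraries. Since they were chosen for standing apart, that fit, with fewer libraries in each group, is no independent check of the calls.

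Cells under TNFα and red light had fewer transcripts of the IP3 receptor ITPR3 than cells under TNFα alone, at 62 ± 4.33 CPM with TNF plus LED and 114 ± 19.9 CPM with TNF (SD, n = 3 each), a 1.84-fold difference. In bulk libraries fewer expressing cells and less RNA per cell cannot be told apart. ITPR3 was the only one of the 10 genes that passed an adjusted p of 0.05 in the test over all genes (edgeR's quasi-likelihood test, two-sided, Benjamini-Hochberg adjustment), which is what "called" means here. None was called higher and 9 were not called. Of all genes tested, 5.17% were called in either direction and 2.73% were called lower, so 1 of 10 is near the background. For 6 of the 10 genes the groups did not overlap, against 32.4% of all genes tested. With both libraries that stood apart left out these were 8 of 10 genes, against 60.8% of all genes. The 6 were ITPR3, ORAI1, ORAI2, ORAI3 and STIM1, lower with TNF plus LED, and STIM2, higher. The same 6 genes had an unadjusted p below 0.05, against 22.7% of all genes tested. The median log2 fold change of the 10 genes was -0.43, and that of all genes tested was 0.01.

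**Figure D1:**
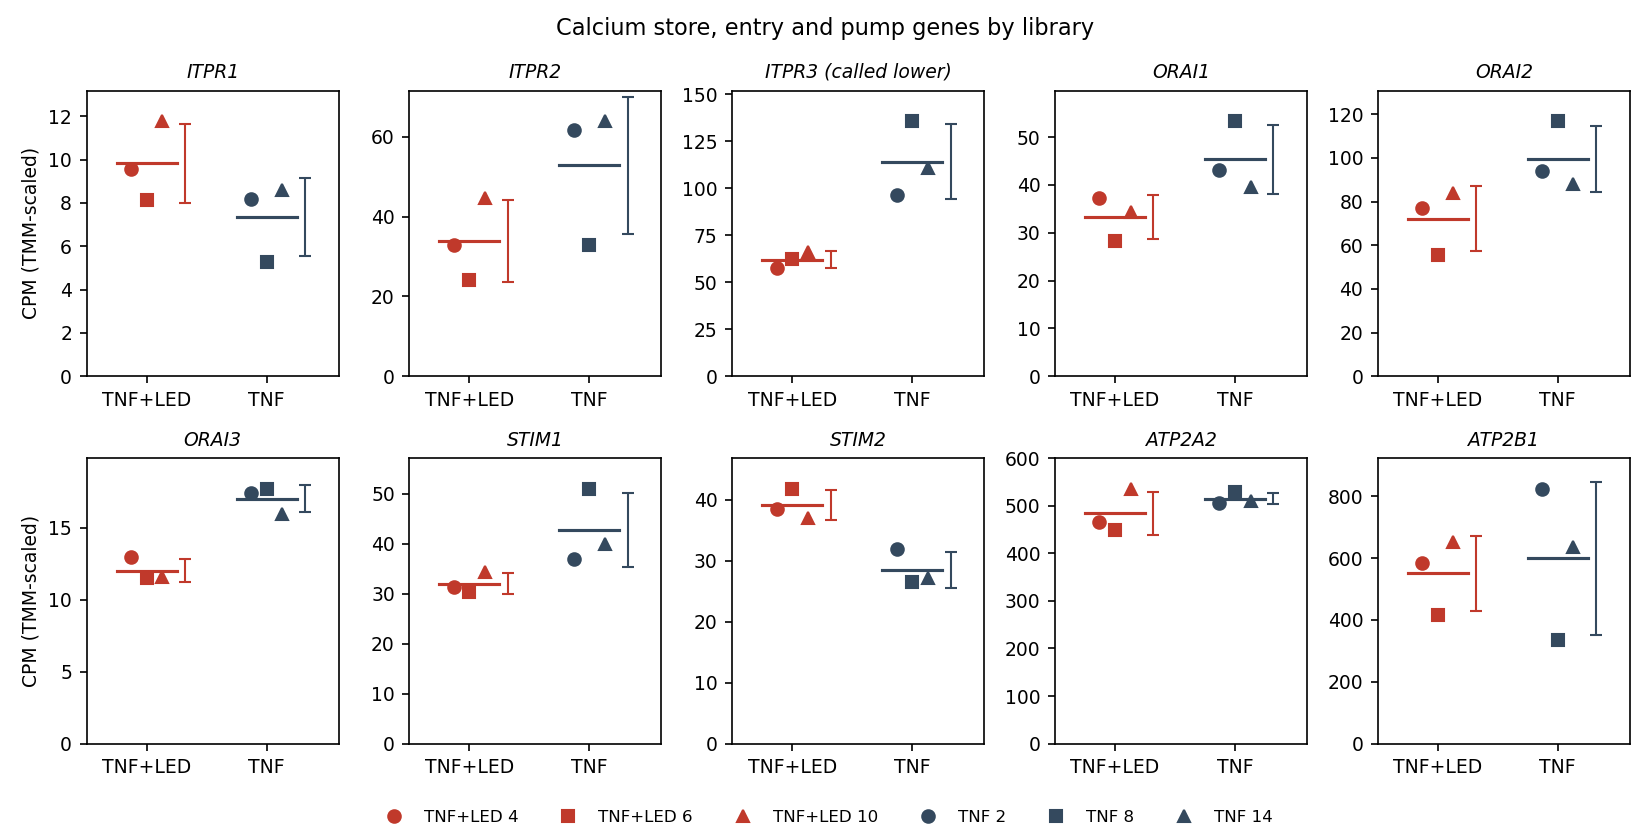
Levels of the 10 genes in CPM on the vertical axes, starting at 0, with TNF plus LED libraries in red on the left and TNF libraries in dark blue on the right of each panel. Each symbol is a library, horizontal lines are group means and bars beside them are the SD (n = 3). The groups are separate for ITPR3, the ORAI genes, STIM1 and STIM2, with STIM2 the one of these that was higher with TNF plus LED, and TNF replicate 8 is the highest or lowest square of its group in every panel.

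The IP3 receptors are the release channels of the store. ITPR3 is the subtype with the lowest affinity for IP3. It had 57.4, 62.6 and 66 CPM in TNF plus LED replicates 4, 6 and 10, against 96.3, 136 and 110.5 CPM in TNF replicates 2, 8 and 14. Every TNF plus LED library lay below every TNF library, and TNF replicate 8 was the highest. The log2 fold change was -0.88 ± 0.18 (SE), with a 95% interval of -1.29 to -0.47 and an adjusted p of 0.032 in edgeR. The call was lost without TNF plus LED replicate 4, 6 or 10 (adjusted p = 0.136, 0.114 and 0.0757) and without TNF replicate 14 (0.0981), while the log2 fold change stayed between -1.004 and -0.74. With both libraries that stood apart left out it was -0.74 (adjusted p = 0.0124). Exons of ITPR3 share 10.4% of their bases with UQCC2 on the other strand, and whether counting used the strand is not stated in the sources. UQCC2, a mitochondrial assembly factor, had 17.9 ± 3.88 CPM with TNF plus LED and 17 ± 3.99 CPM with TNF (SD, n = 3 each). These levels are not per length, and the part of UQCC2 in the ITPR3 counts was not tested.

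Of 11 genes listed for heat shock, stress of the endoplasmic reticulum and proliferation, 6 rose, 1 fell and 4 did not pass. By the same test 63.6% were thus called, against 5.17% of all genes tested. Those that rose were the heat shock genes HSPA1A, HSPA1B, HSPH1 and DNAJB1 and, of the endoplasmic reticulum, HSPA5 and DNAJB9. The 4 that did not pass, HSP90B1, SDF2L1, HERPUD1 and DDIT3, were all listed for stress of the endoplasmic reticulum. They too had higher means with TNF plus LED, at log2 fold changes of 0.90, 1.23, 1.76 and 1.75. Their unadjusted edgeR p was 0.0044 to 0.0125, and the groups overlapped only for DDIT3. The chaperone HSPA1A had 6009.8, 10652 and 3645 CPM in TNF plus LED replicates 4, 6 and 10, against 188, 97.7 and 81.1 CPM in TNF replicates 2, 8 and 14. The proliferation marker MKI67 had 102, 83.3 and 97.3 CPM in the TNF plus LED libraries, against 158, 259 and 203 CPM in the TNF libraries. TNF replicate 8 was the highest TNF library for MKI67, as it was for 6 of the 10 calcium genes. Without both libraries that stood apart, the log2 fold changes of HSPA1A and MKI67 were 5.16 and -0.85, against 5.79 and -1.13 with all libraries. HSP90B1, SDF2L1 and HERPUD1 were then called (edgeR adjusted p = 0.0493, 0.0124 and 0.0268). HSPA1B and DNAJB1 were then no longer called (edgeR adjusted p = 0.0649 and 0.0521). The part of these genes in the calcium gene results was not tested.

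ITPR1, the subtype that predominates in neurons, had the lowest mean level of the 10 genes, also per exon length. It had 9.58, 8.12 and 11.8 CPM in TNF plus LED replicates 4, 6 and 10, against 8.17, 5.3 and 8.62 CPM in TNF replicates 2, 8 and 14, on 538 to 1136 estimated counts per library. The groups overlapped, and the log2 fold change of 0.42 ± 0.25 (SE) was not called (edgeR adjusted p = 0.357). It was 0.35 without both libraries that stood apart (0.196). ITPR2, the subtype most sensitive to IP3, had 32.9, 24.2 and 44.7 CPM in the TNF plus LED libraries, against 61.7, 33 and 64 CPM in the TNF libraries. TNF replicate 8 lay within the TNF plus LED range, and the log2 fold change was -0.64 ± 0.30 (edgeR adjusted p = 0.239). With both libraries that stood apart left out, ITPR2 was called at -0.69 (edgeR adjusted p = 0.0348). That fit had 2 libraries per group and left out TNF replicate 8, the TNF library that lay within the TNF plus LED range. In it 2 of the 10 genes were called, when 12% of all genes tested were.

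The ORAI genes encode the pore of store-operated entry, with ORAI1 the best known of the family. ORAI1 had 37.2, 28.3 and 34.4 CPM in TNF plus LED replicates 4, 6 and 10, against 43.2, 53.4 and 39.5 CPM in TNF replicates 2, 8 and 14. ORAI2 had 77.1, 55.5 and 84 CPM in the TNF plus LED libraries, against 94.1, 117 and 88.2 CPM in the TNF libraries. ORAI3, which also forms channels gated by arachidonic acid together with ORAI1, had 13, 11.5 and 11.6 CPM in the TNF plus LED libraries, against 17.4, 17.7 and 15.9 CPM in the TNF libraries. For all 3 genes every TNF plus LED library lay below every TNF library, and none of them was called. The log2 fold changes of ORAI1, ORAI2 and ORAI3 were -0.45 ± 0.19, -0.47 ± 0.21 and -0.50 ± 0.17 (SE; edgeR adjusted p = 0.197, 0.218 and 0.117). Relative to the level, the gap was narrowest for ORAI2, at 84 CPM in the highest TNF plus LED library and 88.2 CPM in the lowest TNF library. With both libraries that stood apart left out the log2 fold changes of ORAI1, ORAI2 and ORAI3 were -0.21, -0.18 and -0.44 (adjusted p = 0.237, 0.253 and 0.0741). Of the exon bases of ORAI3, 52.9% are shared with a non-coding transcript, AC135048.1, on the same strand, so its counts are uncertain, and 5.26% of those of ORAI2 are shared with ALKBH4 on the other strand.

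The calcium sensors of the store lay on opposite sides. STIM1, the main trigger of store-operated entry, had 31.4, 30.3 and 34.4 CPM in TNF plus LED replicates 4, 6 and 10, against 37.1, 51.1 and 40 CPM in TNF replicates 2, 8 and 14. STIM2, which responds to smaller losses of store calcium and helps hold resting calcium, had 38.6, 41.9 and 37.1 CPM in the TNF plus LED libraries, against 31.9, 26.5 and 27.2 CPM in the TNF libraries. The groups did not overlap for either gene, with STIM1 lower and STIM2 higher with TNF plus LED. Neither was called, at log2 fold changes of -0.41 ± 0.18 and 0.46 ± 0.16 (SE; edgeR adjusted p = 0.207 and 0.135). With any single library left out, the log2 fold change of STIM1 lay between -0.52 and -0.27 and that of STIM2 between 0.41 and 0.53. Without both libraries that stood apart they were -0.23 and 0.36 (adjusted p = 0.205 and 0.0891).

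The pumps had the highest mean levels of the 10 genes, also per exon length. ATP2A2 had 467, 449.6 and 536 CPM in TNF plus LED replicates 4, 6 and 10, against 506, 528 and 510.4 CPM in TNF replicates 2, 8 and 14. The groups overlapped, and the 95% interval of its log2 fold change of -0.09 ran from -0.45 to 0.27 (edgeR adjusted p = 0.788). HSPA5, the chaperone of the endoplasmic reticulum lumen, had 3267, 7472 and 2806 CPM in the TNF plus LED libraries, against 1417, 1182 and 1567 CPM in the TNF libraries. In TNF plus LED replicate 6, where HSPA5 was highest, ATP2A2 was the lowest of the 6 libraries. In TNF plus LED replicate 10, where HSPA5 was also above every TNF library, ATP2A2 was the highest of the 6. A relation between HSPA5 and ATP2A2 was not tested. The log2 fold change of ATP2A2 was -0.02 without both libraries that stood apart (edgeR adjusted p = 0.94). ATP2B1 had 584, 417 and 652 CPM in the TNF plus LED libraries, against 824, 335 and 637 CPM in the TNF libraries. Relative to its mean it spread more than any other of the 10 genes within the TNF group, and its log2 fold change of -0.12 had a 95% interval of -0.82 to 0.58 (edgeR adjusted p = 0.86). The sign of the ATP2B1 difference changed without TNF replicate 2 (0.17) or TNF plus LED replicate 6 (0.05), and without both libraries that stood apart the log2 fold change was -0.24 (0.322).

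**Figure D2:**
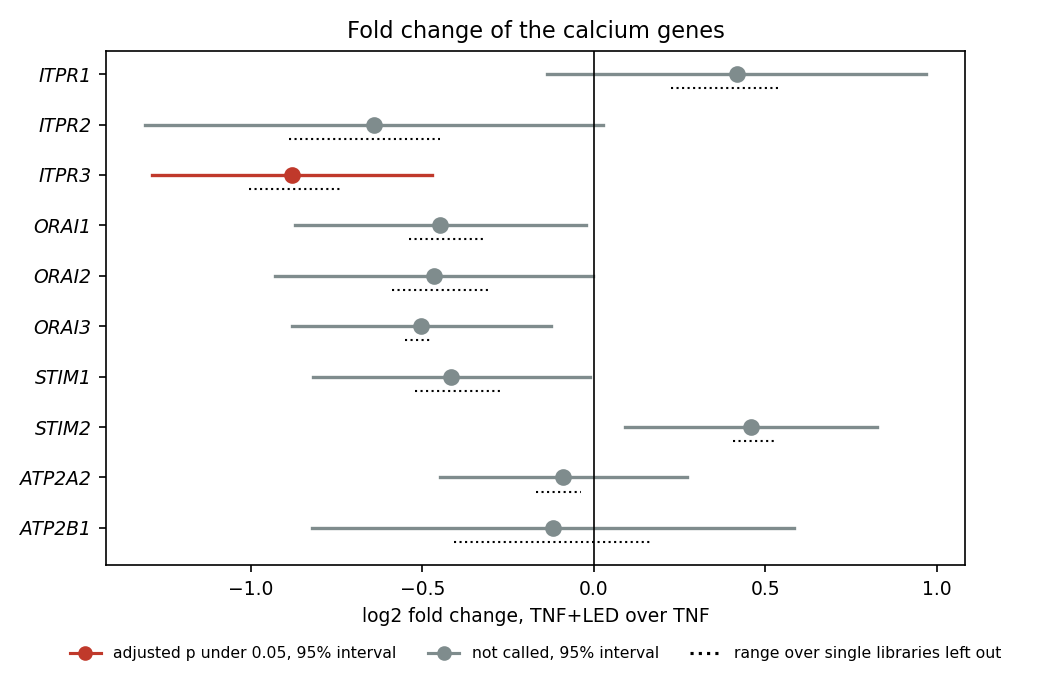
Log2 fold change of TNF plus LED over TNF for each of the 10 genes (points), with the 95% interval of the edgeR fit (solid lines) and the range when any single library was left out (dotted lines). ITPR3, in red, is the called gene at -0.88. ITPR1 and STIM2 lie above 0, and the dotted range of ATP2B1 crosses 0.

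Ratios between related genes within a library do not depend on how libraries were scaled, and 8 were compared. STIM2 counts over STIM1 counts were 1.23, 1.38 and 1.08 in TNF plus LED replicates 4, 6 and 10, against 0.862, 0.518 and 0.678 in TNF replicates 2, 8 and 14. STIM2 thus outnumbered STIM1 in every TNF plus LED library and in no TNF library, although raw counts of genes of unequal length are compared. The mean ratio differed 1.82-fold, or by 0.86 on the log2 scale, and by 0.59 without both libraries that stood apart. The ITPR2/ITPR1 ratio was 3.44, 2.98 and 3.79 in the TNF plus LED libraries, against 7.55, 6.23 and 7.43 in the TNF libraries, a log2 difference of -1.06. The ITPR3/ITPR1 ratio was 6.00, 7.71 and 5.6 in the TNF plus LED libraries, against 11.8, 25.6 and 12.8 in the TNF libraries, a log2 difference of -1.30. It was -0.95 without TNF replicate 8 and -1.08 without both libraries that stood apart. In these 3 ratios the groups did not overlap. The exact two-sided permutation test gave p = 0.1 for each, the smallest that 3 against 3 allows (0.267 adjusted over the 8 ratios). The separation of STIM2/STIM1 follows from the separate levels of both genes given above, so its test adds nothing to them. The ITPR ratios share ITPR1 and are not independent of each other.

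The ratios among the ORAI genes overlapped between the groups. The ORAI2/ORAI1 ratio was 2.07, 1.96 and 2.44 in TNF plus LED replicates 4, 6 and 10, against 2.18, 2.19 and 2.23 in TNF replicates 2, 8 and 14. The TNF values lay inside the TNF plus LED range, with a log2 difference of -0.03 (exact permutation p = 0.8). The ORAI3/ORAI1 and ORAI3/ORAI2 ratios differed by -0.06 and -0.03 on the log2 scale, with overlapping groups (exact permutation p = 1 for both). They differed by -0.24 and -0.27 without both libraries that stood apart. ITPR3/ITPR2 and ATP2B1/ATP2A2 overlapped as well, at -0.24 and 0.04 (exact permutation p = 0.7 and 0.9), and without both libraries that stood apart at -0.03 and -0.21.

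**Figure D3:**
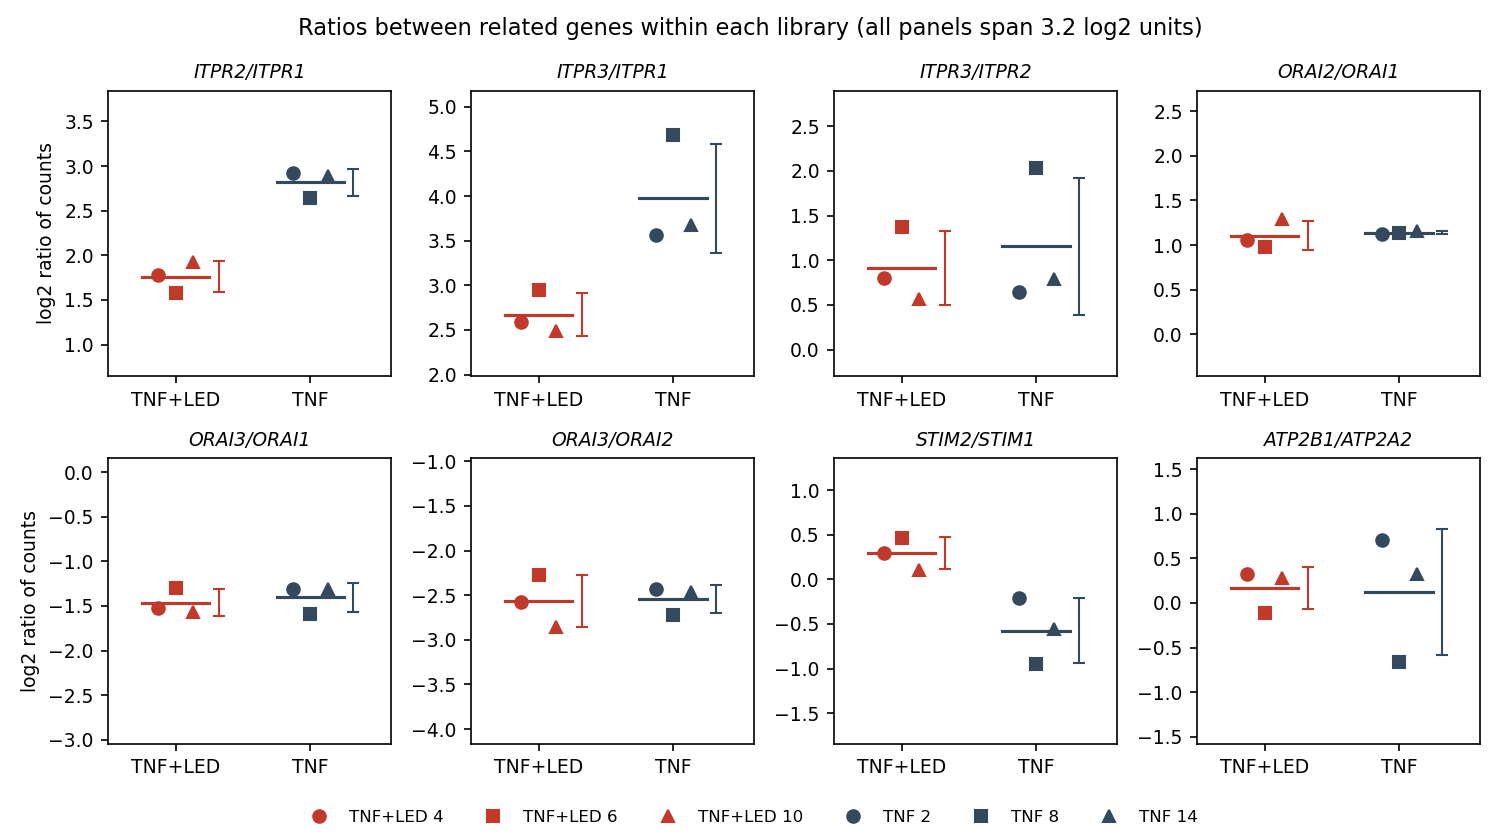
Log2 ratio of the counts of related genes within each library, with TNF plus LED in red on the left and TNF in dark blue on the right. Symbols are libraries, lines are means and bars the SD (n = 3), and each panel spans the same range. ITPR2/ITPR1, ITPR3/ITPR1 and STIM2/STIM1 have separate groups, and the other 5 ratios overlap.

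The sequences upstream of the called gene and of both sensors are shown because ITPR3 carries the call and STIM1 and STIM2 differed in direction. They are the 250 bases before the start listed by RefSeq on GRCh38.p14, plus strand, written 5′ to 3′. Capitals mark the GC box GGGCGG, bound by SP1-type factors, and the CCAAT box, each searched on both strands, and neighbouring GC boxes can overlap. ITPR3 spans chr6:33621072-33621321, STIM1 chr11:3855414-3855663 (the first of 4 starts listed) and STIM2 chr4:26860591-26860840.
ITPR3: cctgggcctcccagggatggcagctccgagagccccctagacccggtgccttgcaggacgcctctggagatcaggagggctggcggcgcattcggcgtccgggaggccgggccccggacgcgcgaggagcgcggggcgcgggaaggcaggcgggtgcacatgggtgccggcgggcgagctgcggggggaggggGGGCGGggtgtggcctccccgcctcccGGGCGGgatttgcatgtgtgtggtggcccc
STIM1: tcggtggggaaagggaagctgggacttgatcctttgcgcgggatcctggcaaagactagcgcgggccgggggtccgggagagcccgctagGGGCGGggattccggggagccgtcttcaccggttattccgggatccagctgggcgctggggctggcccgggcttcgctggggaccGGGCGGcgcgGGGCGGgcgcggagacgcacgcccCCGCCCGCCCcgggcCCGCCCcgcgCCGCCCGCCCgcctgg
STIM2: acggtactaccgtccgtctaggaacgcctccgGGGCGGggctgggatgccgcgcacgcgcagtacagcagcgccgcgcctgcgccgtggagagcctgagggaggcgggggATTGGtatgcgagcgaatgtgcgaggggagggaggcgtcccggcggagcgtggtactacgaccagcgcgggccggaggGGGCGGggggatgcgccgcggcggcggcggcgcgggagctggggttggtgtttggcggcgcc
The window of ITPR3 held 2 GC boxes and no CCAAT box, that of STIM1 8 and none, and that of STIM2 2 and 1. The other STIM1 windows held 0 GC boxes and no CCAAT box, 2 and 1 as in STIM2, and 8 and none. The STIM1 counts thus depend on the start chosen and do not set it apart from STIM2. Windows were found for 8 of the 10 genes, not for ITPR2 and ORAI1, and 13 in all counting alternative starts. STIM1 gave 4 of the 13, some of them overlapping, so the windows are not separate promoters. GC boxes were present in 9 of these 13 windows, against 42.6% of all 35116 RefSeq windows of this length, and CCAAT boxes in 3, against 32%. By gene, GC boxes were found for 6 of the 8 and CCAAT boxes for 3. The heat shock element, searched on both strands as GAA, TTC and GAA with any 2 bases between them, was in none of the 13 and in 0.441% of all windows. The endoplasmic reticulum stress element, CCAAT and CCACG with any 9 bases between them, which contains the CCAAT box, was also in none and in 0.074% of all windows. These matches describe letters in these windows and no binding was measured.

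Levels can be compared between genes only per length, and CPM was divided by the kilobases of all exons annotated in GENCODE release 29. ATP2B1 had 58.1 ± 12.8 CPM per kilobase with TNF plus LED and 63.1 ± 26 with TNF (SD, n = 3 each). ATP2A2 had 35.2 ± 3.33 with TNF plus LED and 37.5 ± 0.867 with TNF. The ranges of these pumps over the 6 libraries overlapped each other and lay above those of all other genes. ORAI1 followed at 14.7 ± 2.02 with TNF plus LED and 20.1 ± 3.17 with TNF. From ORAI1 on, through ITPR3, ORAI2, ORAI3, STIM1, STIM2 and ITPR2, each range overlapped that of its neighbour, with means over the 6 libraries of 17.4 CPM per kilobase for ORAI1 down to 3.4 for ITPR2. ITPR1 was last at 0.303 ± 0.0568 with TNF plus LED and 0.227 ± 0.0555 with TNF, below the range of ITPR2. With the length of the longest transcript instead, ATP2A2 came before ATP2B1 with overlapping ranges, STIM1 moved to the fifth place and ITPR1 stayed last, at 0.964 ± 0.181 CPM per kilobase with TNF plus LED and 0.722 ± 0.177 with TNF.

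**Figure D4:**
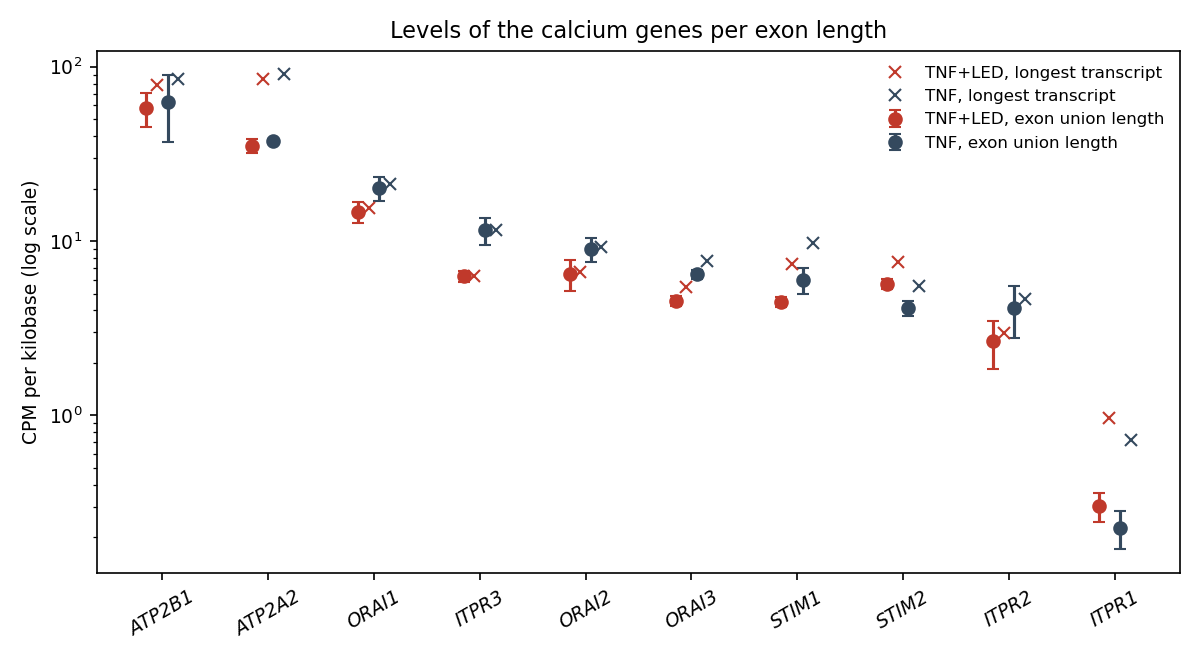
Mean level in CPM per kilobase on a log axis for the 10 genes, in the order of their mean over the 6 libraries, with TNF plus LED in red left of TNF in dark blue. Circles with SD bars (n = 3) use the union of annotated exons and crosses the longest single transcript. The pumps are highest and ITPR1 is lowest under both lengths.

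Around these genes, 136 others of the calcium pathway were listed in 7 groups, and 119 could be tested. Of those, 3 rose, 1 fell and 115 did not pass, so 3.36% were called against 5.17% of all genes. Their median log2 fold change was -0.06.

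Among 11 other pumps and exchangers 2 rose and 9 did not pass (median log2 fold change 0.31). The group was split in direction. For 9 of the 11, the called genes included, the libraries did not overlap, with 5 higher and 4 lower with TNF plus LED. Of all genes tested, 32.4% did not overlap. SLC8A2, the sodium-calcium exchanger NCX2, had 1.94, 15.2 and 2.74 CPM in TNF plus LED replicates 4, 6 and 10, against 0.108, 0 and 0.138 CPM in TNF replicates 2, 8 and 14 (edgeR adjusted p = 0.0172). In the TNF libraries this was 12, 0 and 12 estimated counts, at or below a floor of 3 fragments. The call was lost without TNF plus LED replicate 6 (0.0867) and without TNF replicate 2 or 14 (0.0508 and 0.0558), and in limma-voom (0.125). Its fitted log2 fold change, which depends on the prior count, was 6.34 with all libraries and 4.25 without both that stood apart (0.00479). ATP2B3, a plasma membrane pump best known from the nervous system, had 0.151, 0.169 and 0.342 CPM in the TNF plus LED libraries and was listed at 0 in the TNF libraries. In the TNF plus LED libraries this was 16, 17 and 33 estimated counts, where the floor of 3 fragments is 12. Taking that floor for each TNF library, the TNF plus LED mean of ATP2B3 was 1.82-fold higher, with the counting error of that mean left aside. Its call (edgeR adjusted p = 0.0405) was lost when any single library was left out (0.0631 to 0.144). It was also lost with no filter on low counts (0.0651) or without both libraries that stood apart (0.053). With counts divided by 4, or a filter of at least 1 CPM in at least 3 libraries, ATP2B3 was not among the genes tested. NFATC2, a transcription factor that calcineurin brings into the nucleus when calcium rises, had 3.18, 5.6 and 3.89 CPM in the TNF plus LED libraries, against 8.94, 12.6 and 13.2 CPM in the TNF libraries. It fell by 1.46 ± 0.27 on the log2 scale (SE, edgeR adjusted p = 0.0236), and the call was lost without TNF replicate 14 or any 1 TNF plus LED library (up to 0.0958). Its log2 fold change was -1.65 without both libraries that stood apart (0.0106). It was the 1 member that fell of 20 in the calmodulin, calcineurin and NFAT group, whose other 19 did not pass (median -0.39).

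The remaining groups held 1 call. HSPA5, given above, rose 3.25-fold (edgeR adjusted p = 0.0323, and up to 0.0883 with a single library left out) and was the 1 of 14 calcium-binding proteins of the endoplasmic reticulum lumen that passed (median 0.23). Its log2 fold change of 1.70 became 1.03 without both libraries that stood apart (edgeR adjusted p = 0.00714). None of 22 partners and regulators of the 10 genes passed (median -0.16), with TMEM178B at -1.46 and NPTN, a partner of plasma membrane calcium pumps, at -0.56 (edgeR adjusted p = 0.081 and 0.0816). None of 17 other release and entry channels passed (median -0.05). TMEM63A, a mechanically gated channel, was nearest at -0.65 (edgeR adjusted p = 0.0503), and CACNA1G, a T-type voltage-gated channel, was at 1.36 (0.0886). None of 21 genes of IP3 production and breakdown passed (median -0.36), with the phospholipases PLCD1 and PLCG1 at 0.69 and -0.57 (edgeR adjusted p = 0.0798 and 0.0887). None of 14 genes of mitochondrial calcium uptake passed (median -0.05), with MCUB, an inhibitory subunit of the uniporter, at -0.96 and SLC25A25, a calcium-regulated carrier of the inner membrane, at -0.38 (edgeR adjusted p = 0.117 and 0.292). Of all genes, 22.7% had an unadjusted edgeR p below 0.05. In groups with no call such genes numbered 6 of 22, 5 of 17, 6 of 21 and 1 of 14, in the order given. They were 8 of 11 other pumps and exchangers and 3 of 14 calcium-binding proteins of the endoplasmic reticulum lumen. In the calmodulin, calcineurin and NFAT group they were 10 of 20. Of the 8 genes named in groups with no call DESeq2 called TMEM178B, NPTN, TMEM63A, CACNA1G, PLCD1 and PLCG1 (adjusted p = 0.0141, 0.037, 0.0124, 0.00958, 0.0307 and 0.0442). Over all 7 groups DESeq2 called 16 of 124 genes, or 12.9%, against 11% of all genes. Without both libraries that stood apart edgeR called NPTN, TMEM63A, PLCD1 and PLCG1 (log2 fold changes -0.51, -0.61, 0.89 and -0.39). TMEM178B, CACNA1G, MCUB and SLC25A25 were then at -1.18, 0.67, -0.52 and -0.37 (adjusted p = 0.0578, 0.104, 0.221 and 0.0709). Over all 7 groups 17 of 119 genes, or 14.3%, were then called, against 12% of all genes.

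**Figure D5:**
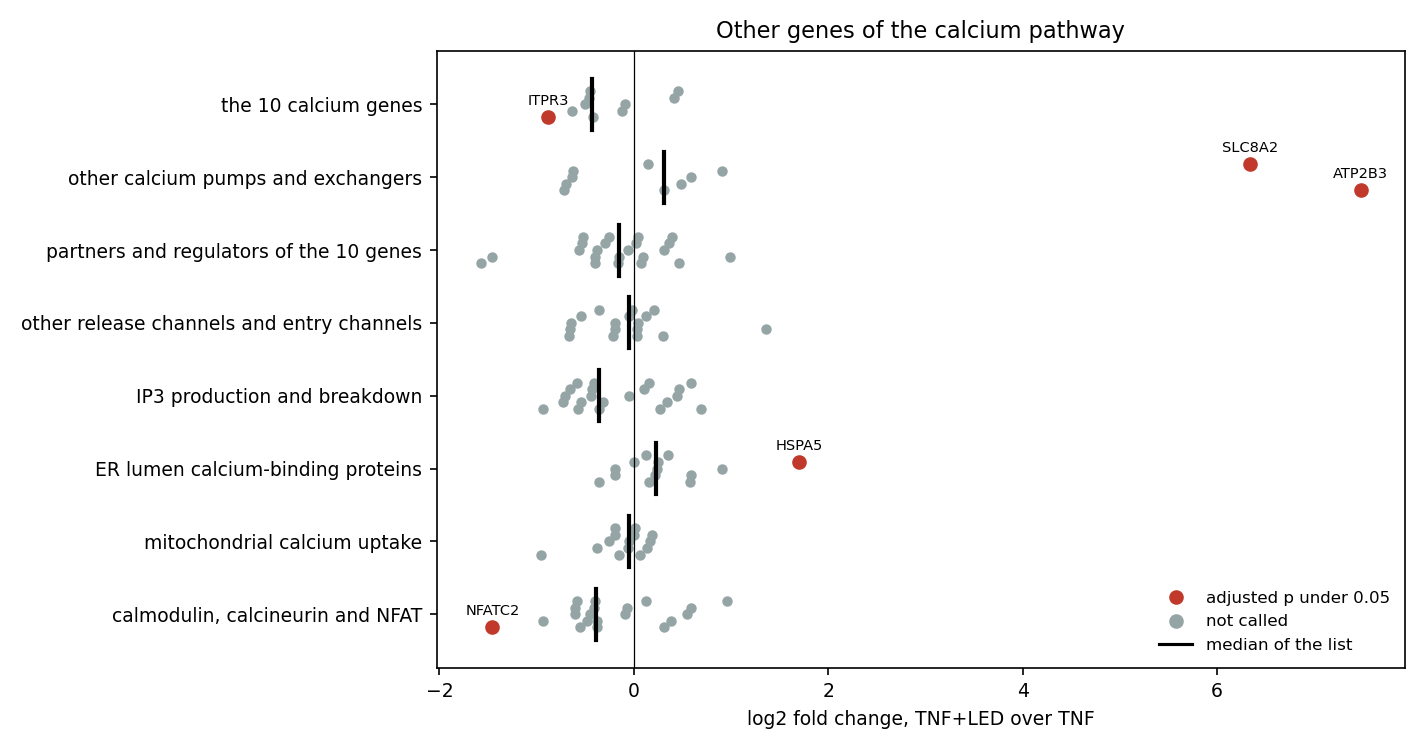
Log2 fold change of TNF plus LED over TNF for the 10 calcium genes (top) and for the tested genes of 7 groups of the calcium pathway. Each point is a gene, red points passed an adjusted p of 0.05, and black bars are medians, which run from -0.43 for the 10 genes to 0.31 for other pumps and exchangers. The fitted values of SLC8A2 and ATP2B3 depend on the prior count of the fit, since their TNF libraries were at or near 0.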

How the data were processed

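Per the labels' protocols, ribosomal RNA was removed from total RNA before random priming. The authors deposited one table of estimated counts per gene symbol for the 6 libraries, as whole numbers. Of the values between 1 and 7, 67.2% equalled 4 or 5, hence about 4 units per fragment. Tools listed in the submitters' processing notes, with no role given, are HISAT2, StringTie, limma, DESeq2 and bcl2fastq 2.0, with the mouse build mm10, although samples and symbols are human. The build and strand setting are not given in the sources used here.

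Groups came from the sample titles. All genes kept by filterByExpr were fitted with edgeR 4.0.16 (R 4.3.3) by its robust quasi-likelihood test with TMM scaling and no covariate. The estimated counts entered as deposited, being whole already. SE was the log2 fold change over the square root of F. The procedure was tested on simulated counts. Replicates were no copies of each other (chi-square per degree of freedom 27.1 to 132 on counts divided by 4). Nothing in the labels says that replicates were separate cultures, so each p-value reflects the spread among these libraries alone, possibly technical. Floors cover counting error only.

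The 10 genes, the pathway groups and the tests were chosen with earlier results of these data known. All 10 genes are named; from each group, up to 4 called genes with the lowest p, or the 2 lowest where none was called. Context genes, markers and UQCC2 are named beside results they touch. Alternatives were other filters and scalings, DESeq2 1.42.0, limma-voom (limma 3.58.1), non-robust dispersions, counts divided by 4, other thresholds and single libraries left out. Leaving out both libraries that stood apart was added after the data were seen. GENCODE release 29 lengths matched 19208 of 19475 symbols.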

Additional observations from a re-analysis of the deposited data

How the results depend on the processing

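The 713 genes called over the whole table became 1658 with DESeq2, 1669 with both libraries that stood apart left out, 1471 at an adjusted p under 0.10, 70 at 0.01 and 80 to 737 with single libraries left out (80, 113, 116 and 219 without TNF plus LED replicate 6, TNF replicate 14, TNF plus LED replicate 4 and TNF plus LED replicate 10). The causes were not tested. Of the 10 calcium genes, 0 to 1 were called with single libraries left out, 2 with both libraries that stood apart left out and 0 at an adjusted p under 0.01. Under every other filter, scaling, tool and threshold run, 1 was called. The 4 called pathway genes became 16 with DESeq2, 17 without both libraries, 14 at 0.10, 0 at 0.01 and 0 to 3 with single libraries left out (0 without TNF replicate 14 or TNF plus LED replicate 6).

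Signs changed for differences near 0. ATP2B1 was at 0.17 without TNF replicate 2 and 0.05 without TNF plus LED replicate 6, within a range of -0.41 to 0.17 with single libraries left out. With single libraries left out, the log2 differences of the ratios ranged from -0.12 to 0.033 for ORAI2/ORAI1, from -0.17 to 0.12 for ORAI3/ORAI2, from -0.50 to 0.20 for ITPR3/ITPR2 and from -0.35 to 0.34 for ATP2B1/ATP2A2. Without both libraries that stood apart ORAI2/ORAI1 was at 0.030 and ATP2B1/ATP2A2 at -0.21. The other 9 calcium genes kept their sign in all 16 alternatives. Another scaling moved the median gene to between -0.03 and 0.02. ITPR1 had the lowest mean level of the 10 genes, and the SE was largest for ATP2B1 (0.31). No paired analysis was possible because the groups share no sample number.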
